A study of Mus musculus with 10 samples.

Results

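Fkbp5, Tsc22d3, Sgk1, Tat, Zbtb16, Klf9, Klf15, Errfi1 and Ddit4 are mouse genes known to be switched on by glucocorticoids, and these 9 were taken by gene name from the 54532 genes of the deposited liver table. RNA of whole liver was sequenced from 5 ASK1f/f and 5 ASK1+hep mice, each fed HFD for 7 weeks. All 10 mice were on a C57BL/6J background and carried a ROSA26-based construct in which a lox-stop-lox cassette precedes murine ASK1 cDNA. In ASK1+hep mice the stop cassette was removed by Cre under the albumin promoter, that is, in hepatocytes, whereas the ASK1f/f control littermates carried no Cre. HFD started at the age of 6 weeks, and livers were taken in the light phase after a fast of 5 h. The comparison asks how hepatic ASK1 overexpression, which the study links to Fgf21, went together with the level of these 9 genes. Values are FPKM, the reads on a gene scaled by its length and by library size, and all 9 genes were among the 13306 that passed the filter on low values.

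Glucocorticoids (corticosterone in mice) enter hepatocytes and bind the glucocorticoid receptor, which chaperones hold ready in the cytoplasm. The bound receptor moves to the nucleus, where it binds DNA elements and recruits coregulators, and liver genes for gluconeogenesis and amino acid breakdown are transcribed. Several induced genes act back on signalling. Fkbp5 encodes a co-chaperone that lowers hormone binding by the receptor, Tsc22d3 encodes GILZ, an anti-inflammatory leucine zipper protein, Sgk1 encodes a kinase downstream of PI3K, Errfi1 encodes MIG6, an inhibitor of the EGF receptor, and Ddit4 encodes REDD1, an inhibitor of mTORC1. Tat encodes tyrosine aminotransferase, a classical hormone-induced enzyme of amino acid breakdown. Zbtb16, Klf9 and Klf15 encode zinc finger transcription factors, of which KLF15 is known to promote amino acid breakdown and gluconeogenesis. Many of these genes also respond to fasting, insulin, time of day or stress, so their level is not a readout of the hormone alone, and the hormone was not part of these data. In bulk liver, fewer cells of a type and less RNA per cell cannot be told apart.

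The receptor's element consists of a pair of hexamers, AGAACA, that face each other across 3 bases (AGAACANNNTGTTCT, which reads the same on both strands). Promoter windows of 300 bases, from 250 bases before to 50 after a start site, were taken from RefSeq (GRCm38.p6) for 8 of the 9 genes, 16 windows in all; Zbtb16 had no window. The exact element was found in 3 of all 32851 promoter windows (0.00913%), and 1 of these was a window of Sgk1. The 250 bases before that start site (chr10:21993640-21993889, plus strand, on no GENCODE M21 exon of Sgk1) are shown because they hold the element, with matching bases in capitals. It begins 189 bases before the start site, at position 21993701.

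Sgk1 promoter: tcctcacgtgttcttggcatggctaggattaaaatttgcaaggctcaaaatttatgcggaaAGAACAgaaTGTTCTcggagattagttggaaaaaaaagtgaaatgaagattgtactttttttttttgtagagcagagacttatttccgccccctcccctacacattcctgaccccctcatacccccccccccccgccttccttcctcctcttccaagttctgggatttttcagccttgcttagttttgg

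Looser matches from other windows of the 9 genes are shown for comparison with the element, again with capitals for bases that match it. They lie in another Sgk1 window (chr10:21985854-21986153) with 2 mismatches, and in an Errfi1 window (chr4:150854820-150855119) with 3 mismatches. A further Sgk1 window (chr10:21881934-21882233) also had 3 mismatches and is not shown. The start site of the window with 2 mismatches is 6119 bases from the nearest GENCODE M21 transcript start of Sgk1. The share of all windows with 2 or 3 mismatches was not counted.

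Sgk1, exact match: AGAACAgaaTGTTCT

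Sgk1, 2 mismatches: AGAAgAttcTGaTCT

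Errfi1, 3 mismatches: AaAACtcggTGTcCT

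With up to 1 mismatch allowed, 54 windows of all (0.164%) held the element, and among the 16 windows of the 9 genes the count was still 1. The hexamer alone, which the full element contains, was in 6233 of all windows (19.0%), and in 4 of the 16, which belonged to Sgk1 and Tsc22d3. These are matches of letters in a short window, and receptor binding was not measured.

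Libraries held 13367742 to 16163378 reads on genes, recovered from the FPKM steps. Map3k5, the gene of ASK1, averaged 8.77 FPKM in controls and 12.5 FPKM in ASK1+hep livers, but the library labelled ASK1f/f replicate 5 had the highest value of all, 19.8 FPKM, against its label. Fgf21 was higher in every ASK1+hep liver than in every ASK1f/f liver. ASK1+hep replicate 3 stood apart, with 10.9% of its reads on mitochondrial genes (4.19% to 6.74% in the others) and the lowest value of the 10 livers for 26.1% of all genes compared. Hepatocyte markers dominated in every liver, with 6 markers summing to 32151 to 44445 FPKM in controls and 38282 to 47374 FPKM in ASK1+hep livers. Lymphocyte markers summed to 3.96 FPKM at most. The 5 adipocyte markers summed to 5.82 to 56.3 FPKM in controls and 13.9 to 135 FPKM in ASK1+hep livers, highest in replicate 3. Nearly all of this was Cidec, a lipid droplet gene that fatty hepatocytes also express, while Lep was listed at 0 and Adipoq and Plin1 at no more than 0.0526 FPKM in every liver. Cidec and Fabp4, the 2 adipocyte markers past the filter, went in opposite directions, with log2 fold changes of 1.69 and -0.10 in 1 order or the other. Labels of genotype and replicate were kept throughout.

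The 7 most abundant of the 9 genes had the same order of mean levels in both genotypes. Tat stood at 944 ± 326 FPKM (SD, n = 10), Errfi1 at 342 ± 83.1, Klf15 at 82.9 ± 16.9, Tsc22d3 at 35.1 ± 16.1, Klf9 at 17.0 ± 8.18, Ddit4 at 14.5 ± 7.90, Fkbp5 at 8.19 ± 4.10, Sgk1 at 5.05 ± 2.02 and Zbtb16 at 4.48 ± 4.21 FPKM. Tat, Errfi1 and Klf15 had ranges over the 10 livers that did not overlap their neighbours within this trio. From Klf15 and Tsc22d3 downwards the ranges of neighbours overlapped, although Klf15 was above Tsc22d3 in 10 of 10 livers. Klf9 was above Ddit4 in 5 of 10 livers and Sgk1 above Zbtb16 in 6 of 10, so these pairs had no fixed order.

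None of the 9 genes differed between ASK1f/f and ASK1+hep livers beyond the spread between livers. On average 7 of the 9 were lower in ASK1+hep livers, with a median log2 fold change of -0.35, against -0.0065 over all genes compared, of which 52.0% were lower. With FPKM rescaled to all reads on genes, 8 of the 9 and 64.8% of all genes were lower. Limma on log2(FPKM + 1) with Benjamini-Hochberg adjustment over 13306 genes passed 0 of the 9 at an adjusted p of 0.05 (0% of all genes), with adjusted p between 0.812 and 0.992. At an unadjusted p under 0.05 it also passed 0 of the 9 (5.77% of all genes). In 0 of the 9 genes did the FPKM of the genotypes fail to overlap (0.864% of all genes). The median depended on single livers, from -0.64 without ASK1+hep replicate 5 to -0.086 without ASK1+hep replicate 4. It was -0.55 without ASK1+hep replicate 1, -0.22 without ASK1+hep replicate 3 and -0.27 without ASK1f/f replicate 5, the control with the highest Map3k5. The number of lower genes ranged from 5 of the 9 without ASK1+hep replicate 4 to 9 of 9 without ASK1+hep replicate 2.

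**Figure D1:**
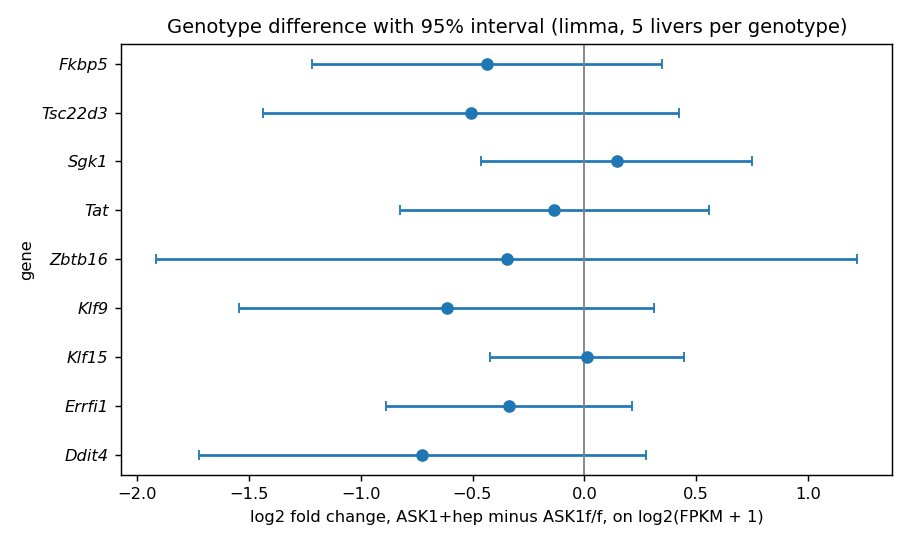
Log2 fold change of each gene (horizontal axis, ASK1+hep minus ASK1f/f on log2(FPKM + 1)) with its 95% interval from limma, 5 livers per genotype, one row per gene. Every interval includes 0, from Ddit4 at -0.72 to Sgk1 at 0.14.

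Fkbp5 (ENSMUSG00000024222), the receptor's co-chaperone, is encoded on chromosome 17 (28399094 to 28517527, minus strand, GRCm38). Control replicates 1 to 5 had it at 7.78, 13.8, 8.60, 3.48 and 14.5 FPKM, and ASK1+hep replicates 1 to 5 at 8.87, 4.01, 4.06, 5.09 and 11.7 FPKM. The highest and the lowest liver were both controls, and 3 ASK1+hep livers lay at the low end without passing below the lowest control. The means were 9.64 ± 4.58 and 6.74 ± 3.40 FPKM (SD, n = 5 each), with a log2 fold change of -0.43 (standard error 0.36, 95% interval -1.22 to 0.35, limma adjusted p = 0.817). Exact permutation of the livers between genotypes, two-sided and on log2 values, gave p = 0.333. Without ASK1f/f replicate 4, the lowest liver, the log2 fold change was -0.71 (limma unadjusted p = 0.0386, adjusted p = 0.917), and it was -0.27 without ASK1f/f replicate 5, -0.28 without ASK1f/f replicate 2 and -0.22 with quality weights. Fkbp5 overlaps 4 other annotated genes, AC154912.1 and Gm22146 on the opposite strand and AC154912.3 and AC154912.5 on its own. Reads shared with these could not be separated.

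Tsc22d3 (ENSMUSG00000031431) is encoded on chromosome X (140539528 to 140600659, minus strand). Its 5 control livers were at 41.9, 31.4, 69.0, 36.2 and 22.1 FPKM in replicate order, and the ASK1+hep livers at 33.9, 42.3, 24.8, 7.67 and 41.9 FPKM. All but 1 of the ASK1+hep livers lay within the control range, and replicate 4 alone lay below it. Means of 40.1 ± 17.7 and 30.1 ± 14.4 FPKM (SD, n = 5 each) corresponded to a log2 fold change of -0.51 (standard error 0.43, interval -1.44 to 0.42, limma adjusted p = 0.817; exact two-sided permutation p = 0.413). Leaving out 1 liver gave -0.69 (without ASK1f/f replicate 5) to -0.096 (without ASK1+hep replicate 4), and quality weights gave -0.82.

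Among the regulators of kinase signalling, Sgk1 (ENSMUSG00000019970, plus strand of chromosome 10, 21882184 to 21999903) had a higher mean in ASK1+hep livers, unlike 7 of the other genes. Control livers held 5.03, 3.89, 6.03, 4.44 and 3.37 FPKM, and ASK1+hep livers 5.76, 8.61, 3.38, 2.24 and 7.77 FPKM. The controls thus sat within a narrow range, whereas 2 ASK1+hep livers were above it and replicate 4 was below it. Mean Sgk1 was 4.55 ± 1.03 against 5.55 ± 2.74 FPKM (SD, n = 5 each), a log2 fold change of 0.14 (standard error 0.28, interval -0.46 to 0.75, limma adjusted p = 0.911; exact two-sided permutation p = 0.651). Leaving out 1 liver gave -0.024 (without ASK1+hep replicate 2, with the sign turned) to 0.37 (without ASK1+hep replicate 4).

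Errfi1 (ENSMUSG00000028967, plus strand of chromosome 4, 150853919 to 150868892) was abundant and even in controls, at 374, 444, 382, 335 and 327 FPKM. ASK1+hep livers had 365, 364, 272, 146 and 409 FPKM. Of these, 3 lay among the controls, and replicates 3 and 4 were below every control. The means of 372 ± 46.9 and 311 ± 105 FPKM (SD, n = 5 each) gave a log2 fold change of -0.34 (standard error 0.25, interval -0.89 to 0.21, limma adjusted p = 0.815; exact two-sided permutation p = 0.278). Leaving out 1 liver gave -0.46 (without ASK1+hep replicate 5) to -0.086 (without ASK1+hep replicate 4). An antisense gene, 1700045H11Rik, overlaps Errfi1, and whether counting used strand is not given in the sources used here.

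Ddit4 (ENSMUSG00000020108, minus strand of chromosome 10, 59949669 to 59951834) had the highest control-to-ASK1+hep difference on log2(FPKM + 1), an order that other settings and left-out livers changed in favour of Zbtb16 or Klf9. Replicates 1 to 5 were at 23.5, 17.5, 27.2, 11.5 and 8.33 FPKM among controls and at 15.3, 20.5, 4.51, 3.36 and 13.5 FPKM in ASK1+hep livers. ASK1+hep replicates 3 and 4 were below the lowest control, while the other 3 fell inside the control range. Mean levels were 17.6 ± 7.92 and 11.4 ± 7.32 FPKM (SD, n = 5 each), and the log2 fold change of -0.72 (standard error 0.46, interval -1.72 to 0.28) had a limma adjusted p = 0.812 and an exact two-sided permutation p = 0.238. Leaving out 1 liver gave -0.99 (without ASK1+hep replicate 2) to -0.41 (without ASK1+hep replicate 4).

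Tat (ENSMUSG00000001670, plus strand of chromosome 8, 109990437 to 109999803), the enzyme, was the most abundant of the 9 in every liver. It stood at 835, 1414, 1125, 648 and 820 FPKM in control replicates 1 to 5, then at 995, 1254, 545, 499 and 1308 FPKM in ASK1+hep replicates 1 to 5. Of the ASK1+hep livers, 3 were at 995 FPKM or more and 2, replicates 3 and 4, were below every control. The means were close, 968 ± 302 and 920 ± 383 FPKM (SD, n = 5 each), with a log2 fold change of -0.13 (standard error 0.32, interval -0.83 to 0.56, limma adjusted p = 0.928; exact two-sided permutation p = 0.722). Leaving out 1 liver gave -0.29 (without ASK1+hep replicate 5) to 0.058 (without ASK1+hep replicate 4, of the opposite sign).

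Zbtb16 (ENSMUSG00000066687, minus strand of chromosome 9, 48654297 to 48836222) varied more than any other of the 9 genes, by 74.0-fold between the lowest and the highest liver. Controls were at 1.97, 7.90, 2.80, 0.597 and 10.1 FPKM, and ASK1+hep livers at 6.82, 2.88, 0.234, 0.154 and 11.4 FPKM. Both genotypes spanned low and high livers, and the lowest 2 were ASK1+hep replicates 3 and 4. At 12 to 828 reads per liver, the low values rest on few reads. The means of 4.67 ± 4.10 and 4.29 ± 4.80 FPKM (SD, n = 5 each) gave a log2 fold change of -0.35 with a wide interval (standard error 0.72, -1.91 to 1.22, limma adjusted p = 0.915; exact two-sided permutation p = 0.675). It was -0.82 with a pseudocount of 0.1 and -0.97 with limma-voom on the recovered reads. Leaving out 1 liver gave -0.80 (without ASK1+hep replicate 5) to 0.055 (without replicate 4), and the sign also turned without replicate 3 (0.031).

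Klf9 (ENSMUSG00000033863, plus strand of chromosome 19 from 23141226) was nearly level in controls, with 21.7, 16.5, 19.0, 16.3 and 20.9 FPKM. In ASK1+hep livers it was at 18.0, 10.9, 3.31, 9.55 and 33.7 FPKM. Here 3 ASK1+hep livers lay below every control and 1, replicate 5, above every control. Means of 18.9 ± 2.45 and 15.1 ± 11.6 FPKM (SD, n = 5 each) gave a log2 fold change of -0.62 (standard error 0.42, interval -1.54 to 0.31, limma adjusted p = 0.812; exact two-sided permutation p = 0.286). Without ASK1+hep replicate 5 the value was -0.97 (limma unadjusted p = 0.0151, adjusted p = 0.383), and without replicate 3 it was -0.22.

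Klf15 (ENSMUSG00000030087, plus strand of chromosome 6, 90462576 to 90475238) had close means in the genotypes. Livers of ASK1f/f mice had 83.7, 86.2, 94.2, 70.2 and 72.2 FPKM, and those of ASK1+hep mice 81.9, 109, 87.0, 47.6 and 96.4 FPKM. Replicate 4 of ASK1+hep was again the lowest, and 2 ASK1+hep livers were above the highest control. Mean Klf15 was 81.3 ± 10.0 and 84.5 ± 23.1 FPKM (SD, n = 5 each), a log2 fold change of 0.011 (standard error 0.20, interval -0.42 to 0.45, limma adjusted p = 0.992; exact two-sided permutation p = 0.952). Its sign depended on the scaling, with -0.067 when FPKM were rescaled to all reads on genes. The interval spans differences of up to about 0.4 on the log2 scale in either direction, so equal levels are not shown.

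**Figure D2:**
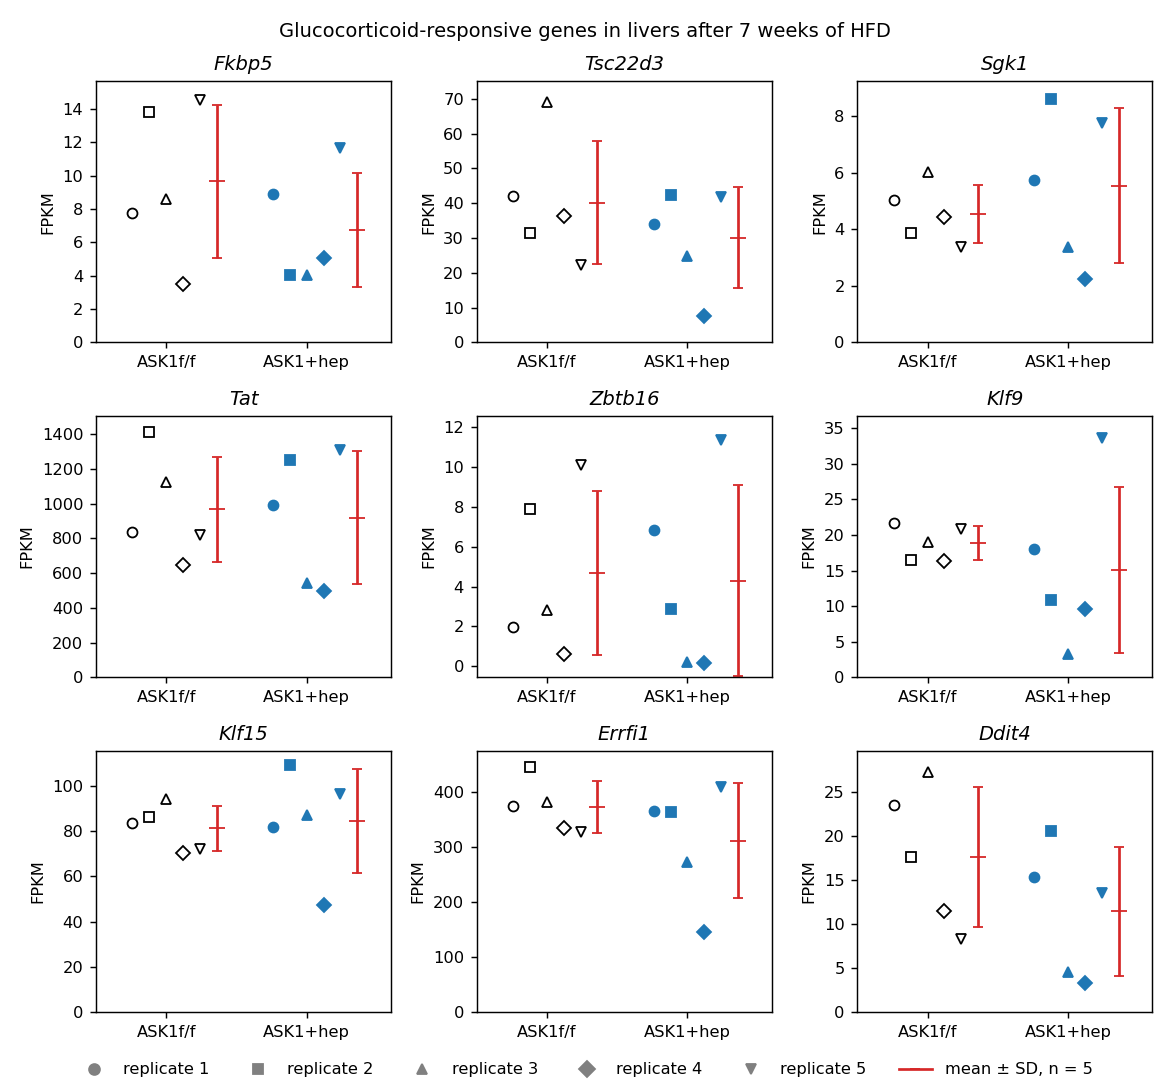
FPKM of each of the 9 genes (vertical axes, linear and different for each panel) in ASK1f/f (open black symbols) and ASK1+hep livers (filled blue symbols), 1 symbol shape per replicate number, with mean ± SD (n = 5) in red. The genotypes overlap in every panel, and the ASK1+hep diamonds, replicate 4, are the lowest of the 10 livers for 7 of the 9 genes.

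The 9 genes spread more widely among ASK1+hep than among ASK1f/f livers in 8 of 9 cases, by the SD of log2(FPKM + 1), with Fkbp5 as the exception. This was also so for 9981 of the 13306 genes compared. The ratio of the SDs had a median of 1.65 for the 9 genes and 1.55 for all genes, and it exceeded 2 for 4 of the 9 (Sgk1, Klf9, Klf15 and Errfi1) and for 35.6% of all genes. Klf9 showed it most clearly, with an SD of 0.18 in controls and 1.11 in ASK1+hep livers. The spread itself was larger than the median over all genes in both genotypes. The median SD of the 9 genes was 0.44 in ASK1f/f and 0.67 in ASK1+hep livers, against 0.13 and 0.22 over all genes. Adding 1 to FPKM shrinks the SD of genes with low FPKM, and the medians over all genes were not matched for level.

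Across livers, low values gathered in ASK1+hep replicates 3 and 4, and the lowest mostly in replicate 4. ASK1+hep replicate 4 was the lowest of the 10 livers for 7 of the 9 genes, against 8.67% of all genes compared, and had a median deviation of -0.83 from the mean of the 10 livers on log2(FPKM + 1). The remaining 2 genes had their lowest value in ASK1+hep replicate 3 (Klf9) and ASK1f/f replicate 4 (Fkbp5). Those livers were the lowest for 26.1% and 4.89% of all genes. ASK1+hep replicates 3 and 4 were each among the 3 lowest livers for 8 of the 9 genes. At the other end, ASK1+hep replicate 5 was among the 3 highest livers for 7 of the 9 and had a median deviation of 0.55. Shares over all genes were not counted for the 3 lowest or the 3 highest livers. By median deviation, the ASK1+hep group thus held both the livers with the lowest and the liver with the highest level of these genes. By summed FPKM of the 9 genes, the highest liver was ASK1f/f replicate 2, at 2036 FPKM against 1932 FPKM in ASK1+hep replicate 5.

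Other measures also differed in these livers. ASK1+hep replicate 3 was the liver with the high mitochondrial share, whereas replicate 4 had 4.30% of reads on mitochondrial genes, within the range of the others. Relative to the mean of the livers, the 25% shortest genes had a median deviation of 0.26 in ASK1+hep replicate 3, 0.11 in replicate 4 and -0.15 in replicate 5, and the 25% longest genes had -0.11, -0.063 and 0.077. The 5 erythroid markers summed to 833 and 1053 FPKM in ASK1+hep replicates 3 and 4, the 2 highest livers, against 333 to 490 FPKM in controls and 324 FPKM in ASK1+hep replicate 5. They were also above every control in ASK1+hep replicates 1 and 2, at 625 and 548 FPKM, where the 9 genes had median deviations of 0.23 and 0.42. Kupffer cell markers (5 genes) summed to 79.8 to 136 FPKM in controls and 50.4 to 126 FPKM in ASK1+hep livers, with 66.1 and 86.5 FPKM in replicates 3 and 4. The part of these measures in the levels of the 9 genes was not tested.

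**Figure D3:**
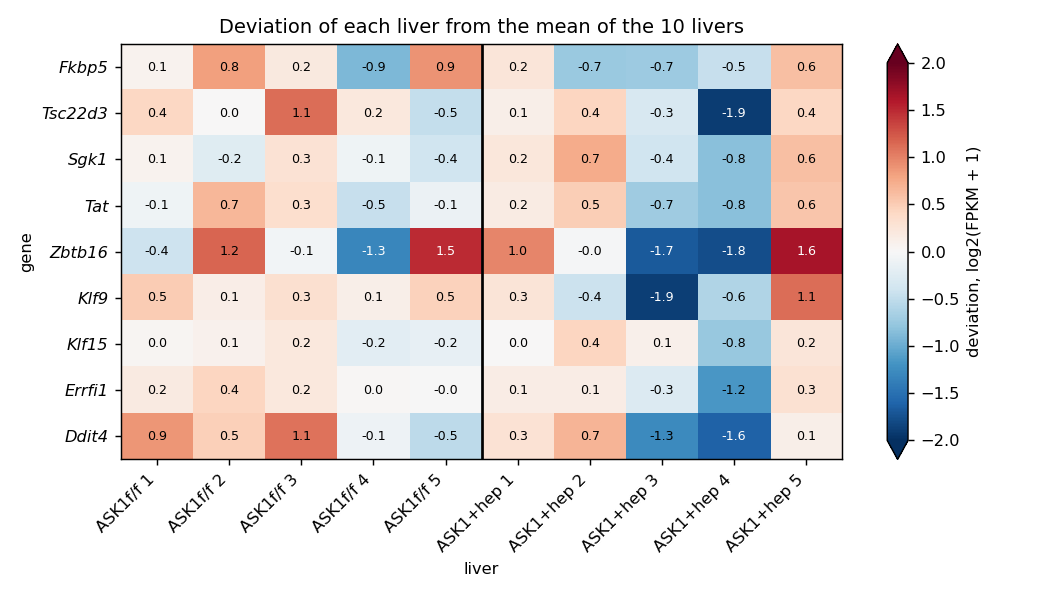
Deviation of each liver (columns, by genotype and replicate) from the mean of the 10 livers for each gene (rows), on log2(FPKM + 1); red is higher and blue lower. ASK1+hep replicates 3 and 4 are blue for nearly all genes, with median deviations of -0.71 and -0.83, and replicate 5 is red.

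Most pairs of the 9 genes varied together between livers. After subtraction of the genotype mean, all 36 pairs had a positive Pearson r over the 10 livers, with a median of 0.67 and a range of 0.036 to 0.92. Among the 5 ASK1f/f livers alone, 27 of the 36 pairs were positive with a median r of 0.27, and among the 5 ASK1+hep livers 36 of 36 with a median of 0.82. These are descriptions over 5 livers each, and their difference was not tested. Over the 10 livers, in 19 pairs (52.8%) r was above 0.6, as it was in 9.93% of the 88518165 pairs of all genes compared, whose median was -0.001. Genes share the same 10 livers, so pairs are not independent of each other. Permutation within genotypes (14400 orders, two-sided, exact) with Benjamini-Hochberg adjustment over the 36 pairs gave an adjusted p at or below 0.05 for 10 pairs by Pearson's r and for 4 by Spearman's rho. Leaving out each liver in turn, the median r of the pairs stayed between 0.59 and 0.73.

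Tsc22d3 and Sgk1 had the highest correlation, with r = 0.92 and rho = 0.93 (exact permutation p = 6.94e-05 for each, the smallest that the orders allow, adjusted p = 0.0025, n = 10 livers). Without the 2 livers farthest from the median, r was 0.89. Sgk1 and Ddit4 followed with r = 0.92 (exact permutation p = 0.00146, adjusted p = 0.0131) and rho = 0.92 (p = 0.00361, adjusted p = 0.0325), and r = 0.86 without the 2 farthest livers. For Tsc22d3 and Klf15, r was 0.91 (exact permutation p = 0.00437, adjusted p = 0.0263) and rho 0.73 (p = 0.0237, adjusted p = 0.107). Their r was 0.53 without ASK1f/f replicate 3 and ASK1+hep replicate 4. Leaving out the farthest livers narrows the range of values, which alone can lower r, so dependence on those livers is not shown. Within genotypes, r was 0.73 in ASK1f/f and 0.96 in ASK1+hep livers.

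Fkbp5 was part of the 3 pairs with the lowest r. Its r with Tsc22d3 was 0.036 (exact permutation p = 0.923, adjusted p = 0.923; rho = -0.030, p = 0.946, adjusted p = 0.946), with Sgk1 0.10 (p = 0.771, adjusted p = 0.793; rho = 0.10, p = 0.807, adjusted p = 0.854) and with Klf15 0.15 (p = 0.726, adjusted p = 0.769; rho = 0.13, p = 0.752, adjusted p = 0.820). Without the 2 livers farthest from the median of Fkbp5, these r were 0.19, 0.44 and 0.26. With Zbtb16, a pair named after its values were seen, Fkbp5 had r = 0.87 (exact permutation p = 0.0025, adjusted p = 0.018; rho = 0.79, p = 0.0137, adjusted p = 0.0985), and 0.97 without the 2 farthest livers. With Klf9 and Tat, also named after their values were seen, its r was 0.60 and 0.56 (exact permutation p = 0.0244 and 0.104, adjusted p = 0.0591 and 0.178; rho = 0.67 and 0.53, p = 0.0544 and 0.149, adjusted p = 0.128 and 0.233), and 0.76 for each without the 2 farthest livers.

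Single control livers, picked after their values were seen, show how these patterns part. ASK1f/f replicate 5, the control whose Map3k5 went against its label, had the highest Fkbp5 of all livers (14.5 FPKM). It also had the highest Zbtb16 of the controls (10.1 FPKM). The same liver had the lowest Tsc22d3 (22.1 FPKM), Sgk1 (3.37 FPKM) and Ddit4 (8.33 FPKM) of the controls. ASK1f/f replicate 3 had the highest Tsc22d3 (69.0 FPKM) and Ddit4 (27.2 FPKM) of all 10 livers. Its Fkbp5 at 8.60 FPKM and Zbtb16 at 2.80 FPKM were the medians of the controls. In ASK1+hep replicate 4, by contrast, Tsc22d3, Sgk1, Ddit4 and Zbtb16 were all at their lowest.

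**Figure D4:**
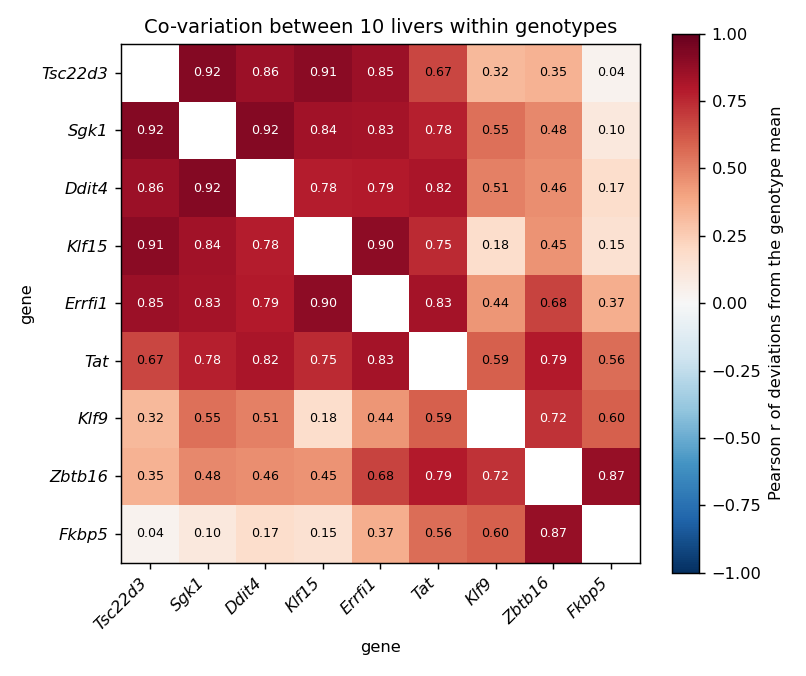
Pearson r between genes (rows and columns) over the 10 livers after subtraction of the genotype mean. Tsc22d3, Sgk1, Ddit4, Klf15, Errfi1 and Tat have r of 0.67 or more with each other, and Fkbp5 has its highest r, 0.87, with Zbtb16.

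None of the 9 genes had another of the 9 as its closest companion among all genes, although many of them ranked high. Of the 72 ranks that each gene took among the 13305 others by r with another of the 9, 24 were in the top 1% and 34 in the top 5%. By definition, 1% and 5% of all genes lie there. The highest rank was that of Sgk1 for Ddit4, at 3 of 13305. The genes outside the 9 that followed each most closely had r of 0.93 to 0.99 over the 10 livers, given as a description since they are the highest of 13305 values. For Fkbp5 they were Retreg1 (r = 0.94) and Tnfrsf11a (0.93), for Tsc22d3 Sec24a (0.99) and Rasgef1b (0.94), and for Sgk1 Pikfyve (0.96) and Dr1 (0.95). Errfi1 was followed by Insr, the insulin receptor gene (0.94), and Gm14327 (0.94), Ddit4 by Zfp276 and Gm15690 (both 0.97), and Tat by AV026068 (0.97) and Rbm3 (0.96). The closest to Zbtb16 were Susd6 (0.97) and Tmc7 (0.95), to Klf9 Casd1 and Nt5dc1 (both 0.99), and to Klf15 Irf2bp2 (0.94) and Tcim (0.93).

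The machinery of the receptor showed no difference between genotypes that passed the adjusted threshold. Of 8 genes for the receptor and its chaperones, 0 had an unadjusted p under 0.05 (5.77% of all genes), and the median log2 fold change was 0.049. Nr3c1, the glucocorticoid receptor gene, was at 8.96, 6.38, 8.35, 9.97 and 7.56 FPKM in controls and at 7.83, 5.31, 5.31, 5.34 and 10.5 FPKM in ASK1+hep livers. In all, 3 ASK1+hep livers (replicates 2, 3 and 4) were thus below every control, and replicate 5 was above every control. By median deviation of the 9 genes, replicates 3 and 4 were the lowest livers and replicate 5 the highest. In replicate 2, by contrast, Sgk1 and Klf15 were at their highest. A relation between Nr3c1 and the 9 genes was not tested. The log2 fold change of Nr3c1 was -0.27 (standard error 0.18, limma adjusted p = 0.812). The chaperone genes with the lowest p were Hspa8, with 198 ± 31.9 and 248 ± 63.4 FPKM (SD, n = 5 each; log2 fold change 0.31, limma adjusted p = 0.812), and Ptges3, which encodes p23 (log2 fold change 0.18, limma adjusted p = 0.812). Among 7 coregulator genes 0 had an unadjusted p under 0.05, and Ncor1 and Ncoa2 had log2 fold changes of -0.16 and -0.15 (limma adjusted p = 0.816 and 0.817).

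Genes of steroid handling set how much active hormone a hepatocyte holds, and 1 of 5 had an unadjusted p under 0.05 (5.77% of all genes). Hsd11b1, whose enzyme regenerates the active hormone, ranged from 71.6 to 112 FPKM in controls and from 76.3 to 106 FPKM in ASK1+hep mice, with a log2 fold change near 0 (0.0050, interval -0.32 to 0.33, limma adjusted p = 0.996). Serpina6, which encodes the corticosteroid-binding globulin of plasma, was at 87.1 ± 22.6 and 111 ± 38.3 FPKM (log2 fold change 0.31, limma adjusted p = 0.817). Akr1d1, a reductase that inactivates steroid hormones and takes part in bile acid synthesis, was at 36.1, 37.4, 43.6, 37.7 and 15.5 FPKM in controls and 24.0, 25.1, 12.3, 14.1 and 28.8 FPKM in ASK1+hep livers. Every ASK1+hep liver was below 4 of the 5 controls, and the control that overlapped was replicate 5. Its log2 fold change was -0.68 (standard error 0.30, limma unadjusted p = 0.042, adjusted p = 0.812). H6pd and Srd5a1 had log2 fold changes of -0.21 and 0.16 (limma adjusted p = 0.814 and 0.815).

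Other genes known to be induced by glucocorticoids went in both directions. Of 27 listed, 26 passed the filter (Mt2 did not), with 16 lower and 10 higher on average, a median log2 fold change of -0.19 and 0 past the adjusted threshold. At an unadjusted p under 0.05, 1 was higher and 2 were lower (5.77% of all genes in either direction). Glul, which encodes glutamine synthetase, was the only gene of the 26 whose genotypes did not overlap (0.864% of all genes). It was at 250 to 328 FPKM in controls and 348 to 485 FPKM with ASK1 overexpression (log2 fold change 0.42, standard error 0.14, limma adjusted p = 0.812). Pik3r1, a regulatory subunit of PI3K, averaged 8.35 ± 1.45 and 6.03 ± 1.74 FPKM (SD, n = 5 each; log2 fold change -0.43, limma adjusted p = 0.812). Orm1, an acute-phase protein gene, averaged 976 ± 428 and 563 ± 165 FPKM (SD, n = 5 each; log2 fold change -0.73, limma adjusted p = 0.812). ASK1f/f replicates 2 and 5 had Orm1 at 1414 and 1462 FPKM. The other controls, at 549 to 731 FPKM, lay within the ASK1+hep range of 402 to 824 FPKM. The gluconeogenic genes Pck1 and G6pc had log2 fold changes of 0.27 and 0.44 (limma adjusted p = 0.818 and 0.812).

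Other targets were also often lowest in ASK1+hep replicate 4, which was the lowest liver for 9 of the 26 (8.67% of all genes) and the highest for 1. ASK1+hep replicate 3 was the lowest for 3 of the 26 (26.1% of all genes) and the highest for 3. Per1, a clock gene with direct receptor control, was at 1.91 FPKM in ASK1+hep replicate 4 against 7.40 to 14.2 FPKM in the other 9 livers. Lpin1, named after its values were seen, was at 2.70 FPKM in the same liver, against 12.2 to 61.3 FPKM in the others. Dusp1, a phosphatase that switches off MAP kinases, had its highest value of the 10 livers in ASK1+hep replicate 4, 26.0 FPKM, against 5.53 to 15.1 FPKM in controls (log2 fold change 0.56, limma adjusted p = 0.812). Lcn2, an acute-phase gene also named after its values were seen, was at 124 and 45.3 FPKM in ASK1f/f replicates 2 and 5 and at 1.05 to 4.10 FPKM in the other 8 livers. Those 2 livers were also the ones with the highest Fkbp5, 13.8 and 14.5 FPKM.

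Clock genes, which are known to be set in part by glucocorticoids, were compared because levels of several of the 9 genes cycle over the day. Of 11 listed, 10 passed the filter (Npas2 did not), and 0 passed the adjusted threshold. At an unadjusted p under 0.05 from limma, 1 was higher and 2 were lower (5.77% of all genes in either direction). Per2 was at 7.29, 7.66, 8.64, 7.15 and 5.01 FPKM in controls and 6.40, 5.42, 4.28, 4.04 and 3.77 FPKM in ASK1+hep livers. Only ASK1f/f replicate 5 lay among the ASK1+hep values. The log2 fold change was -0.50 (standard error 0.16, limma unadjusted p = 0.00789, adjusted p = 0.812). Nr1d1, which encodes the repressor REV-ERBα, was higher on average (15.2 ± 3.80 and 24.0 ± 6.89 FPKM, SD, n = 5 each; log2 fold change 0.61, limma adjusted p = 0.812), and Cry1 lower (log2 fold change -0.30, limma adjusted p = 0.812). All livers were taken after the same daytime fast, and the time of each single liver is not given in the sources used here.

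**Figure D5:**
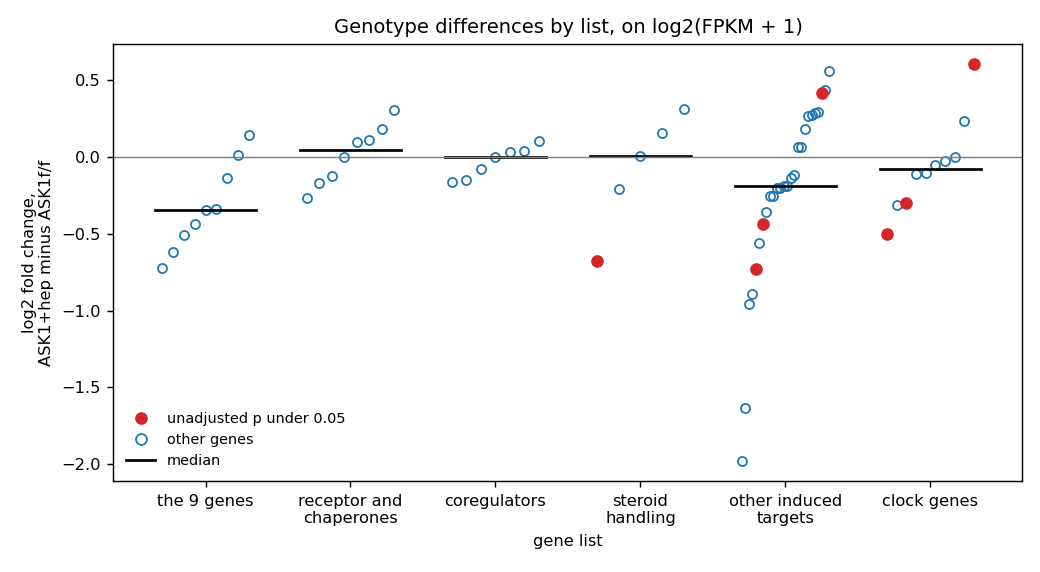
Log2 fold change (vertical axis, ASK1+hep minus ASK1f/f on log2(FPKM + 1)) of each gene past the filter, by list; points are genes, horizontal bars list medians, and red points have an unadjusted p under 0.05 from limma. The 9 genes centre at -0.35 with 0 red points, and the other induced targets at -0.19 with 3.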

How the data were processed

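The authors' provider purified poly-A RNA, cleaned reads (fastp, per the labels), mapped them with Hisat2, counted them with FeatureCounts and deposited FPKM per gene; the authors tested genotypes with DESeq2. Versions, genome build and the strand setting are not given in the sources used here. Of the 54532 genes, 54409 were in GENCODE M21, 98.3% with identical start and end, so GRCm38 coordinates are given. FPKM multiplied by gene length gave whole reads for 100% of values (within 0.01 reads).

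Genotypes were compared with limma 3.58.1 (R 4.3.3) on log2(FPKM + 1), using its mean-variance trend, no covariates and Benjamini-Hochberg adjustment over the 13306 genes that reached 10 reads (after scaling to equal depth) in 5 or more livers and 15 reads in all. The log scale understates changes of genes with low FPKM. Single genes were also compared by exact permutation of livers between genotypes. Alternatives were other filters, a pseudocount of 0.1, limma-voom on the recovered reads, scaling by all reads, a replicate block and leaving out each liver. Figures were drawn with matplotlib 3.10.9. The 9 genes and the gene lists were chosen with earlier results of these data known. Beside the 9, the genes named are up to 3 per list with the lowest p, fixed pathway genes, and the 2 most alike per gene; others are marked, and 1 gene that this rule names is not reported here. Mice are the replicates.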

Additional observations from a re-analysis of the deposited data

How the results depend on the processing

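Over 17 alternatives and 9 genes, 140 of 153 comparisons kept their direction, 13 turned it and 0 passed the adjusted threshold (limma adjusted p between 0.383 and 0.999). Klf15 turned to -0.067 with scaling by all reads and to -0.079 with quality weights; leaving out 1 liver gave log2 fold changes of -0.094 to 0.20 for Klf15, -0.29 to 0.058 for Tat, -0.80 to 0.055 for Zbtb16 and -0.024 to 0.37 for Sgk1. Genes with an unadjusted p under 0.05 from limma numbered 768 of 13306 in the main setting and 1222 of 26389 without a filter. With 1 liver left out they numbered 557 to 1724 of 13306 (1724 without ASK1+hep replicate 5). Genes past the adjusted threshold numbered 1 with limma-voom and quality weights and 0 to 1 with 1 liver left out (1 without ASK1+hep replicate 5), and of the 9 genes 0 to 1 then had an unadjusted p under 0.05. With scaling by all reads, 31.4% of the genes with an unadjusted p under 0.05 were higher, against 52.9%, and the median of all genes was -0.052. Receptor and chaperone genes with an unadjusted p under 0.05 numbered 1 with quality weights and 0 to 1 with 1 liver left out, steroid handling genes 0 without a filter and 0 to 2, and other induced targets 1 to 6. Causes were not tested.

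Same-numbered livers are different animals, with neighbouring animal tags in 4 of 5 pairs, but no label or method says that a number marks a shared litter or batch. Their deviations correlated at 0.021 to 0.17 (mean 0.107, against -0.0275 for different numbers), above 0.1 in 2 of 5 pairs, and 6 of 10 livers correlated best with their own number, which is a hint of pairing from the data, not the design. With the replicate block, 880 genes had an unadjusted p under 0.05 and 0 passed the adjusted threshold, the 9 genes had adjusted p between 0.727 and 0.989, and the counts were 1 for the receptor and chaperones, 0 for steroid handling and 7 for other induced targets. With 5 livers per genotype, log2 differences of the 9 genes smaller than about 0.4 (Klf15) to 1.6 (Zbtb16) lie within the 95% intervals around 0. Low FPKM of Zbtb16 rest on as few as 12 reads.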
